A study of Mus musculus with 6 samples.

Results

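Monocytes of mouse skin wounds that carried transcripts of Ccr2 and of Ly6c2 or Ms4a4c were described from 3 single-cell RNA sequencing libraries of wound tissue. A cell was counted as a member when it held at least 1 unique molecular identifier (UMI, 1 tagged RNA molecule) of Ccr2, at least 2 UMIs of Ly6c2 and Ms4a4c together, under 5 UMIs of C1qa, C1qb and C1qc together, under 5 UMIs of Arg1 and Mmp12 together, no UMI of Cd3e or Cxcr2, and under 0.5% of its UMIs in Col1a1, Col1a2 and Col3a1. The members were thus chosen by measured UMIs of these genes in each cell. The rule took 255 of 11032 wound cells that passed the cell filter, and of 35083 such cells in the whole series. Of these, 44 came from wounds given control dendritic cells (DCs), 116 from wounds given Ndrg2-KO DCs and 95 from wounds given blank hydrogels.

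Classical monocytes are made in the bone marrow, leave it through the chemokine receptor Ccr2 and carry the surface antigen Ly6C, part of which Ly6c2 encodes. In a skin wound they enter from the blood and can turn into inflammatory or reparative macrophages, which then lose Ly6C and gain phagocytic and matrix genes. Some take on antigen-presenting features and load peptides on MHC class II, a programme driven by the transactivator Ciita.

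All 3 libraries came from splinted full-thickness excisional wounds of 6-week-old C57BL/6J wild-type mice of both sexes, explanted on day 10, with 5 mice per group. Each wound was covered with a pullulan-collagen hydrogel, seeded with bone marrow-derived DCs grown with GM-CSF or left unseeded (blank). The Ndrg2-KO DCs were nucleofected with Cas9 ribonucleoprotein against Ndrg2, and the control DCs, called untreated in the labels, received Cas9 with non-targeting guides according to the methods. Each condition is 1 library, so conditions are compared without a p-value, and whether its mice were pooled is not stated. Delivered DCs carried no mark in these data and cannot be told apart from host cells, although the blank hydrogel wounds received none. The design text of the series speaks of GFP-labelled cells from parabiotic mice, but the eGFP and tdTomato features of the reference held 0 UMIs in all 3 libraries. Ndrg2 itself had 0 UMIs in the members of each library, against 181, 164 and 115 UMIs in all filtered cells of the control DC, Ndrg2-KO DC and blank hydrogel libraries. Values below follow this order of libraries unless another is named.

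The members made up 2.26% (44 of 1948 cells, exact Clopper-Pearson 95% interval 1.65 to 3.02), 2.04% (116 of 5681, 1.69 to 2.44) and 2.79% (95 of 3403, 2.26 to 3.40) of the filtered cells. The intervals cover counting error only, and those of neighbouring values overlap. The denominators hold many neutrophils (326, 1584 and 1015 cells with Cxcr2 and at least 10 UMIs of S100a8 and S100a9). As a share of members and macrophages past 1 or both macrophage gates together, the members were 6.48% (4.75 to 8.60), 7.70% (6.40 to 9.16) and 9.27% (7.56 to 11.2). Their depth was similar across libraries, with medians of 10835, 9419 and 10406 UMIs and 2535, 2354.5 and 2449 genes per cell, while all filtered cells had medians of 10795, 4415 and 5603 UMIs. No member barcode occurred in more than 1 library. The depth and the composition of the libraries thus differed, and values are given as UMIs per 1000000 summed UMIs of a class (CPM).

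Both Ly6c2 and Ms4a4c were found in 26, 65 and 45 members, Ly6c2 alone in 4, 10 and 8, and Ms4a4c alone in 14, 41 and 42. The rule fixes that these genes are present. Just inside the Ccr2 threshold stood 6, 25 and 23 members with exactly 1 Ccr2 UMI, and just outside it 13, 65 and 46 cells with none that met every other condition. Inside, their Plac8 level was 2328, 2377 and 1285 CPM, and outside it was 973, 1212 and 1008 CPM. At the threshold of Ly6c2 and Ms4a4c, 5, 17 and 15 members held 2 UMIs, and 9, 29 and 24 cells outside held 1.

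The name given to these cells was checked on Plac8 and Chil3, which the rule did not use. Plac8, a small cysteine-rich protein of Ly6C-positive monocytes, was detected in 84.1%, 92.2% and 84.2% of members. After every cell was drawn down to 1000 UMIs, it was found in 47.7% (exact 95% interval 32.5 to 63.3), 70.7% (61.5 to 78.8) and 47.4% (37.0 to 57.9) of members, against 4.0%, 8.88% and 7.32% of neutrophils drawn to the same depth. Chil3, the chitinase-like protein Ym1, was found in 50%, 27.6% and 58.9% of members and in 4.92%, 2.54% and 2.37% of neutrophils. Macrophages gated on Arg1 and Mmp12 UMIs, called Arg1 Mmp12 macrophages here, held Plac8 in 7.02%, 6.99% and 9.09% of cells, and Chil3 in 45.6% (32.4 to 59.3), 20.5% (16.7 to 24.7) and 22.1% (15.8 to 29.5). Plac8 thus exceeded its share in neutrophils and in Arg1 Mmp12 macrophages in all 3 libraries. Chil3 exceeded its share in neutrophils, but against Arg1 Mmp12 macrophages its intervals overlapped in control DC and Ndrg2-KO DC wounds.

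Markers of other cells were present in part of the members. At least 2 markers of the macrophage list were found in 20, 50 and 46 members, of the neutrophil list in 8, 36 and 34, of the erythroid list in 5, 30 and 9 and of the fibroblast list in 11, 12 and 10. Keratinocyte and B cell markers were found as pairs in no member, and mast cell markers were all at 0 in the control DC and Ndrg2-KO DC members. At least 2 T cell markers were found in 3, 4 and 0 members, at least 2 natural killer (NK) cell markers in 3, 3 and 2, plasmacytoid DC markers in 1, 4 and 3, and conventional DC markers in 3, 6 and 4. The summed NK cell markers were higher in members (107, 159 and 189 CPM) than in all filtered cells (49.6, 75.1 and 49.2 CPM), and so were the conventional DC markers (184, 128 and 136 against 32.2, 32.3 and 58.3 CPM). The neutrophil list (S100a8, S100a9, Retnlg, Csf3r, Mmp9 and G0s2) summed to 85.2, 1891 and 1653 CPM in members, with Mmp9 and G0s2 at 0 in the control DC members. In all filtered cells the same list stood at 8180, 26253 and 20347 CPM. Haemoglobin transcripts reached 9994, 5495 and 78.7 CPM in members, and in the control DC library 3658 of 3689 Hbb-bs UMIs lay in 1 cell. These values stand beside the comparisons of wound conditions, where they move with the result.

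Members were set against 2 macrophage classes of the same libraries, using UMIs summed per library and class. C1q macrophages (433, 654 and 463 cells) held at least 5 UMIs of the C1q genes and under 5 of Arg1 and Mmp12, and Arg1 Mmp12 macrophages (57, 420 and 154 cells) the reverse. A further 145, 317 and 313 cells past both gates, more in all than the Arg1 Mmp12 macrophages, were in neither class and were left out of both comparisons. Because the classes were cut by gate genes, those genes were left out of the calls, and genes that go with them differ in part by construction. Each fold below is a log2 difference ± SE over 3 libraries from edgeR's quasi-likelihood test with Benjamini-Hochberg adjustment and the library as a block. The 3 libraries are 3 treatments, so this spread holds treatment differences as well as technical ones. Of 8773 genes tested, 1455 (16.6%) were higher and 1445 (16.5%) lower in members than in C1q macrophages. The median over all genes was -0.02. The low-count filter asked for 5.08 CPM in 3 sums, so that a gene could be tested through 1 class alone. List counts below are of genes that reached this level in all libraries of both classes, unless they are said to be over all tested genes.

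Compared with C1q macrophages, the members were rich in genes of circulating monocytes: of 10 genes on that list that reached the filter level in both classes, 9 were higher and 1 was lower. The median over all 12 tested was 2.68. Plac8 reached 1279, 1706 and 1018 CPM in members and 158, 274 and 208 CPM in C1q macrophages. All 3 member values stood above all 3 macrophage values, and Plac8 rose by 2.83 ± 0.25 (adjusted p = 1.2e-05). Vcan, the matrix proteoglycan versican made by fresh monocytes, was at 652, 348 and 706 against 30.1, 17.4 and 81.7 CPM and rose by 4.09 ± 0.36 (adjusted p = 1.0e-05). The classes did not overlap for Vcan. Chil3 was at 1886, 475 and 1933 against 64.3, 98 and 175 CPM, without overlap, and rose by 3.70 ± 0.53 (adjusted p = 3.3e-04), although its member level in Ndrg2-KO DC wounds was far below the other members. Cd177, a surface glycoprotein better known from neutrophils, was low at 23.8, 28.5 and 39.8 CPM, against 1.20, 1.45 and 3.90 CPM in macrophages. Hp (haptoglobin, a binder of free haemoglobin), Gsr (glutathione reductase), Thbs1 (thrombospondin 1), Ifitm6 and Fn1 (fibronectin) were also higher. F13a1, the coagulation factor XIII A subunit, went the other way: 364, 257 and 322 CPM in members lay below 1254, 1142 and 1125 CPM, a fall by 1.74 ± 0.23 (adjusted p = 2.0e-04).

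Outside that list, the largest rises among genes with at least 50 UMIs per library in members were those of Ifitm1, an interferon-induced membrane protein, and Gpr141, a receptor without a known ligand. Ifitm1 stood at 794, 1099 and 1638 CPM against 28.7, 83.9 and 90.3 CPM and rose by 4.35 ± 0.26 (adjusted p = 1.4e-06). Gpr141 was at 147, 134 and 186 against 7.57, 6.04 and 13.4 CPM, with a narrow spread, and rose by 4.34 ± 0.19 (adjusted p = 2.5e-07). Next came Slpi (a secreted leukocyte protease inhibitor, 3.95), Napsa (an aspartic protease, 3.65), Ltb4r1 (the leukotriene B4 receptor, 3.60) and Itgb7 (integrin beta 7, 3.23 on the log2 scale). None of these values overlapped between members and C1q macrophages. Among genes of non-classical monocytes, the patrolling Ly6C-low cells, Itgal was higher and Nr4a1, the nuclear receptor that this lineage needs, was lower, while Spn, Ace and Treml4 did not reach the filter level in both classes. In members Itgal was at 55.5, 106 and 55.8 CPM, Spn at 17.8, 19.6 and 9.96 CPM, Treml4 at 5.94, 25.8 and 9.96 CPM and Ace at 3.96, 22.3 and 6.97 CPM.

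**Figure D1:**
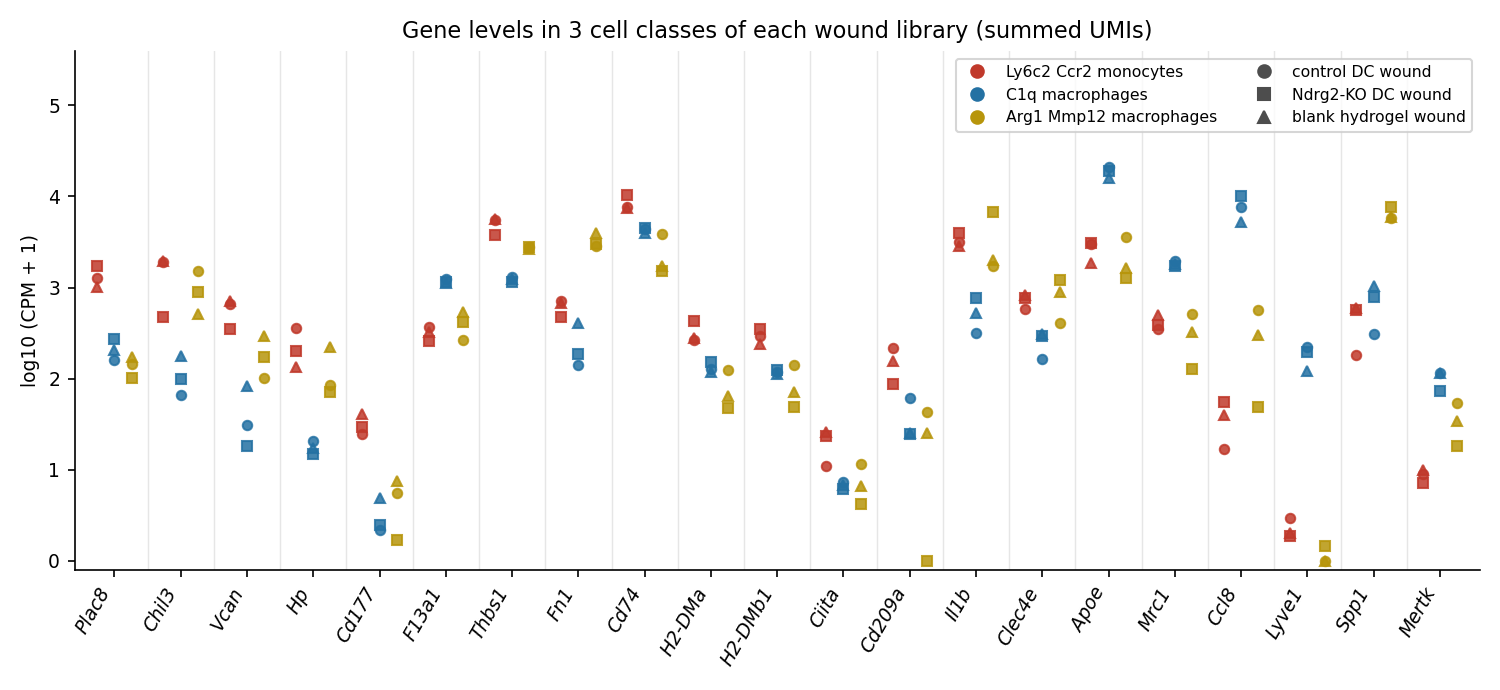
Levels of 21 genes in members (red), C1q macrophages (blue) and Arg1 Mmp12 macrophages (yellow), as log10 of CPM + 1 from UMIs summed per class, with 1 symbol per library and no error bars. Plac8, Vcan and Cd177 of members lie above both macrophage classes in every library, and Apoe, Ccl8 and Lyve1 lie far above members in C1q macrophages.

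Genes of macrophage maturation were low. Of 13 genes on the list, 12 were lower in members and 1 (Spp1) did not pass the test, and the median over all 17 tested was -2.37. Apoe, the lipid carrier apolipoprotein E, was at 3007, 3060.4 and 1881 CPM in members and 21181, 18896 and 15893 CPM in C1q macrophages. The classes did not overlap, and Apoe fell by 2.65 ± 0.25 (adjusted p = 2.0e-05). Mrc1, the mannose receptor CD206, was at 351, 385 and 505 against 1953, 1725 and 1811 CPM and fell by 1.95 ± 0.31 (adjusted p = 6.3e-04). Mertk, a receptor for the uptake of dying cells, fell by 3.47 ± 0.26 (adjusted p = 3.9e-06) from 114, 71.7 and 115 CPM to 7.92, 6.23 and 8.97 CPM. Lyve1, a hyaluronan receptor of perivascular macrophages, was close to absent in members, at 1, 1 and 1 UMIs against 220.3, 194 and 121 CPM in C1q macrophages. C6, a component of the complement membrane attack complex, had 0 UMIs in all members and 96, 72.8 and 51.4 CPM in C1q macrophages, so that it was at least 16.1-fold lower with a floor of 3 UMIs per library. Slco2b1, an organic anion transporter, was likewise at 0 and at least 7.26-fold lower.

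The chemokines made by macrophages were lower too, in 5 of 6 genes. Ccl8, a chemokine made by tissue macrophages, was at 15.8, 54.3 and 38.9 CPM in members and 7749, 10211 and 5289.5 CPM in C1q macrophages, a fall by 7.41 ± 0.79 (adjusted p = 4.5e-05). Ccl2, the main ligand of Ccr2, was at 170.3, 440.0 and 349.7 against 2324, 1968 and 1640.3 CPM and fell by 2.41 ± 0.34 (adjusted p = 2.9e-04). In contrast, 7 of 8 genes for chemokine receptors and adhesion were higher, among them Ccr1, Cxcr4, Itga4, Itgb2 and Selplg, these 5 by under 1 on the log2 scale, but over all 9 tested genes only 2 were without the blank hydrogel library. Il1b, the cytokine interleukin-1 beta, was at 3185, 4005 and 2824 CPM against 318, 764 and 529 CPM and rose by 2.91 ± 0.31 (adjusted p = 4.2e-05). Clec4e, the pattern receptor Mincle, was at 580.3, 775 and 829.8 against 165, 295 and 308 CPM and rose by 1.72 ± 0.21 (adjusted p = 1.1e-04), whereas Tnf, Cxcl2, Ccl3 and Ccl4 did not pass the test. In all, 6 of 12 inflammatory genes were higher and none was lower. Over all 13 tested genes 7 were higher, and without the blank hydrogel library 4, with Il6, Nos2 and Tlr2 lost. Calls of lower genes appeared under other settings, 1 without the Ndrg2-KO DC library, 2 without the highest 6% of Scrublet (doublet) scores and 3 with no filter beyond 1 UMI. With every cell drawn to 2000 UMIs, 4 of 13 were higher and 1 lower. Dissociation stress genes (Fos, Jun, Egr1, Atf3, Dusp1, Hspa1a and Hspa1b), which rise while tissue is digested, were lower in members in 7 of 7 cases, with a median of -1.88. Their part in the other differences was not tested.

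All 4 antigen presentation genes that reached the filter level in both classes were higher in members than in C1q macrophages. Cd74, the invariant chain that guides MHC class II molecules, was at 7704, 10332 and 7382 CPM against 4415, 4498 and 3961 CPM and rose by 1.16 ± 0.26 (adjusted p = 0.0055). H2-DMa, a subunit of the peptide exchanger H2-DM, was at 265, 428 and 278 against 125, 151 and 117 CPM and rose by 1.49 ± 0.27 (adjusted p = 0.0015). Ciita was low throughout, at 9.90, 22.3 and 24.9 CPM against 6.36, 5.07 and 5.76 CPM. Members and macrophages did not overlap for any of these 3 genes. The genes of monocyte-derived DCs were divided. Of 5 that reached the filter level in both classes, 2 were higher (Cd209a and Itgax) and 1 lower (Clec10a). Cd209a, a lectin of monocyte-derived DCs, was at 218, 87.3 and 155 CPM against 60.4, 23.5 and 24.3 CPM. It rose by 2.27 ± 0.51 (adjusted p = 0.0052), but DESeq2 and the removal of members with lymphoid or DC markers each ended this call.

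The count of genes leaned on single libraries: without the blank hydrogel library, 811 genes were higher and 884 lower. Of 101 calls on named genes against C1q macrophages, 90, 94 and 83 held when the control DC, the Ndrg2-KO DC or the blank hydrogel library was left out. Those lost had adjusted p of 0.051 to 0.092, 0.053 to 0.44 and 0.053 to 0.41, among them Itgb2 and Nr4a1 without the control DC library, Ace, Spn, Itga4 and Cxcr4 without the Ndrg2-KO DC library, and Ccr1, Cxcr4, Itga4 and Itgb2 without the blank hydrogel library.

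Against Arg1 Mmp12 macrophages the members were higher in 980 of 8773 genes (11.2%) and lower in 969 (11%), with a median over all genes of -0.03. This comparison uses the same member sums as the one before, so the values are given side by side. The monocyte genes were divided: of 10 that reached the filter level in both classes, 4 were higher (Plac8, Ifitm6, Vcan and Thbs1), Fn1 was lower and 5 did not pass. Plac8 was at 145, 100.02 and 170.2 CPM in Arg1 Mmp12 macrophages, without overlap with members, and rose by 3.26 ± 0.26 (adjusted p = 2.3e-05). Chil3, at 1508, 899 and 515 CPM in Arg1 Mmp12 macrophages, overlapped with members and differed by 0.38 ± 0.49 (adjusted p = 0.63). Fn1 was at 711, 476 and 672 CPM in members and 2834, 3026 and 3949 CPM in Arg1 Mmp12 macrophages, a fall by 2.40 ± 0.26 (adjusted p = 1.3e-04).

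Other genes that rose most against Arg1 Mmp12 macrophages were Tmem176b and Tmem176a, a pair of membrane proteins of antigen-presenting cells. Tmem176b was at 216, 319 and 113 against 34.7, 10.2 and 12.7 CPM and rose by 3.76 ± 0.37 (adjusted p = 7.0e-05). Lpar6, a lysophosphatidic acid receptor, and Sorl1, a sorting receptor, rose by 3.12 and 2.38 on the log2 scale. Cd74 was at 3866, 1526 and 1713 CPM in Arg1 Mmp12 macrophages and rose by 1.92 ± 0.27 (adjusted p = 5.9e-04), and 4 of 4 antigen presentation genes were higher. Interferon-stimulated genes were higher in 5 of 8 cases (Irf7, Rtp4, Zbp1, Oasl2 and Isg15) and lower in none. Over all 14 tested genes the median was 0.87 and 6 were higher, 1 without the blank hydrogel library and 2 without the replicate block. Irf7, a master regulator of type I interferon, stood at 91.1, 111 and 124 against 31.7, 70.7 and 47.7 CPM and rose by 1.06 ± 0.21 (adjusted p = 0.0039). Against C1q macrophages 2 of 10 genes of the list were higher (Zbp1 and Isg15) and none was lower, and neither call held without the blank hydrogel library. Over all 14 tested genes 2 were higher and 1 lower there. With no filter beyond 1 UMI, 3 were higher and 6 lower. Without the Ndrg2-KO DC library 2 were higher and 4 lower, and without the replicate block 0 and 0.

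The genes that fell included Spp1 of the maturation list and, among the largest falls, Slc7a2, Ptges, Mmp13 and Ctsk. All of these but Spp1 were below the filter level in at least 1 member library, so only their values are given. Spp1, the matrix cytokine osteopontin, was at 180.2, 565 and 599.7 CPM in members and 5820.3, 7663 and 5945 CPM in Arg1 Mmp12 macrophages, a fall by 4.06 ± 0.32 (adjusted p = 2.3e-05). Slc7a2, a transporter of arginine, was at 7.92, 0.891 and 9.96 against 305, 346 and 176 CPM, with 1 UMI in the Ndrg2-KO DC members. Ptges, which makes prostaglandin E2, was at 3.96, 0.891 and 13 against 77, 582 and 332 CPM, with 1 UMI in the Ndrg2-KO DC members. None of these overlapped. Mmp13, a collagenase, and Ctsk, the bone and matrix protease cathepsin K, had no UMI in the control DC members and stood at 187, 1197 and 133 and 208, 395 and 287 CPM in Arg1 Mmp12 macrophages. Glycolysis and hypoxia genes were lower in 7 of 9 cases, for example Slc2a1, the glucose transporter Glut1, at 103, 68.6 and 84.7 against 207, 313 and 175 CPM and a fall by 1.48 ± 0.26 (adjusted p = 0.0018). Against C1q macrophages, 5 of the 9 were higher (Pgk1, Slc2a1, Eno1, Ldha and Ndrg1). Without the control DC library 2 were, with Ldha, Ndrg1 and Slc2a1 lost, and without the blank hydrogel library 2, with Ldha, Ndrg1 and Pgk1 lost. Of the inflammatory genes, 4 of 12 fell (Tnf, Ptgs2, Cxcl2 and Il1rn) and none rose. Vegfa, the main vessel growth factor, was at 166, 118 and 144 CPM in members against 548, 332 and 226 CPM and fell by 1.31 ± 0.22 (adjusted p = 0.0014). Its level in C1q macrophages, 159, 119 and 134 CPM, overlapped with members (adjusted p = 0.43). Without the Ndrg2-KO DC library, 516 genes were higher and 529 lower than in Arg1 Mmp12 macrophages, and without the blank hydrogel library 468 and 526. Of 80 calls on named genes, 71, 69 and 61 held without the control DC, the Ndrg2-KO DC or the blank hydrogel library, and those lost had adjusted p of 0.088 to 0.23, 0.051 to 0.29 and 0.064 to 0.42. Thbs1, Isg15, Irf7, Zbp1, Oasl2 and Ifit2 were among those lost without the blank hydrogel library, Isg15 also without the control DC library, and Ciita without the Ndrg2-KO DC or the blank hydrogel library.

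Wound DCs, gated by Flt3, Zbtb46 and Ccr7 with MHC class II and outside the member rule, numbered only 9, 33 and 35 cells, so no test was fitted to them. They held 12444, 16447 and 13312 CPM of Cd74 and 434, 398 and 251 CPM of Plac8. Chil3 in these DCs was at 0, 0 and 12.8 CPM. The DC gate was also met by 4, 12 and 8 of the members.

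The members differed among themselves in MHC class II. When 1000 UMIs were drawn from each cell, 19, 37 and 40 members held no UMI of H2-Aa, H2-Ab1 or H2-Eb1, 1, 2 and 7 held exactly 1, and 24, 77 and 48 held 2 or more, up to 55. The members with 2 or more, called MHC II high here, were 54.5% (exact 95% interval 38.8 to 69.6), 66.4% (57.0 to 74.9) and 50.5% (40.1 to 60.9) of members, against 37.6% of all 255 with none (MHC II zero). This is a range of levels and not a cell type, and the 10 cells with 1 UMI stood between the groups. Median depth was alike, at 10960 and 10747 UMIs for the zero and the high group in control DC wounds, 8790 and 9837 in Ndrg2-KO DC wounds, and 9718 and 10621 in blank hydrogel wounds.

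**Figure D2:**
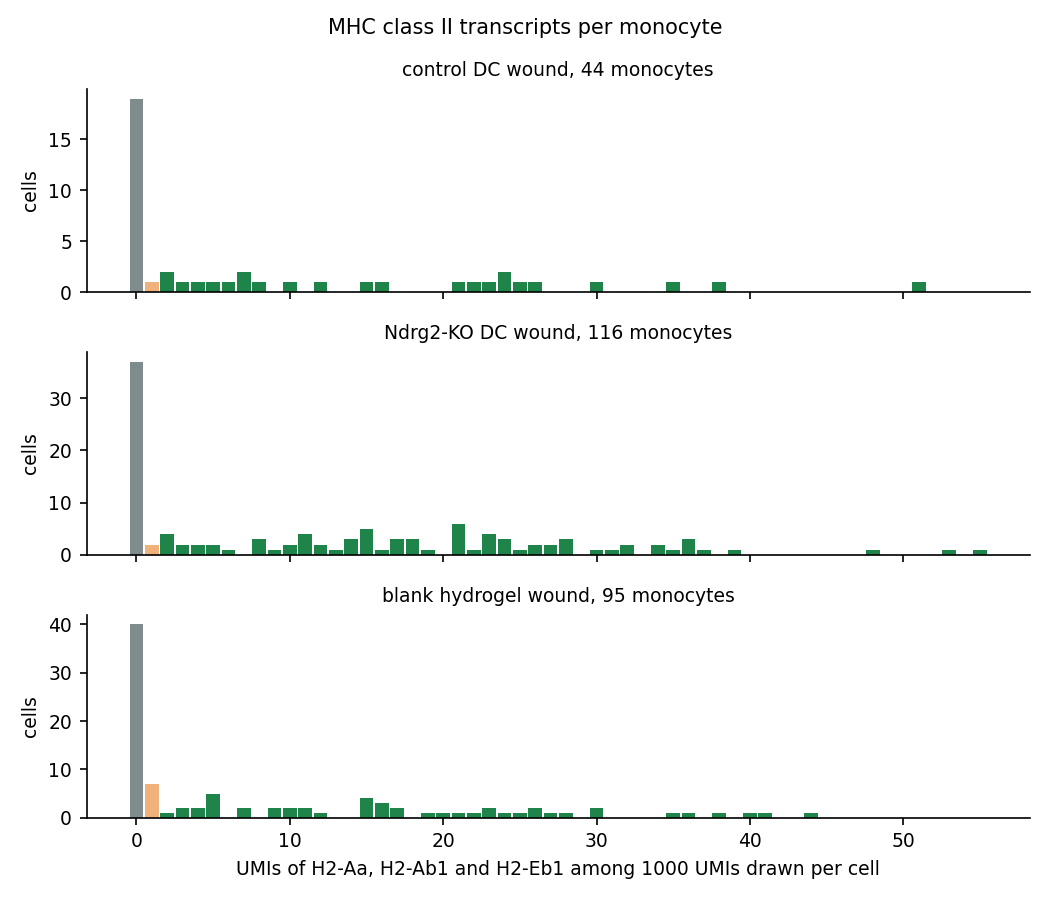
Number of members (vertical axis) by UMIs of H2-Aa, H2-Ab1 and H2-Eb1 among 1000 UMIs drawn per cell (horizontal axis), 1 panel per library. Grey bars are cells with 0, orange bars cells with 1 and green bars cells with 2 or more. The bar at 0 holds 19, 37 and 40 members, and the rest spread up to 55 UMIs.

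The promoters of MHC class II genes carry short elements bound by the factors that recruit Ciita. They are shown because members differed in MHC class II, although of the genes printed below only H2-Eb1 was used to form the groups. RefSeq promoter windows of GRCm38.p6, from 250 bases before to 50 after the start, were given for 5 of the 8 antigen presentation genes and searched on both strands for GATTGG, the letters of the Y box, and for the X box, a longer motif with some open positions, seen as the first run of capitals below. These genes had 6 windows, of which 5 held GATTGG, against 16.1% of all 32851 windows, and 2 held the X box motif, against 0.968%. Of the 2 windows of H2-DMa, 1 held no match and the other had GATTGG at position -199. H2-Aa, which was used to form the groups, had GATTGG at position -49 and no X box match, and is not printed. The stretches of 60 bases below, on mouse chromosome 17, lie at chr17:34153089-34153148 (plus strand), chr17:34305767-34305826 (plus strand) and chr17:34145118-34145177 (plus strand). Capitals mark the letters that matched. H2-DMb2 is shown next to its neighbour H2-DMb1 because only the Y box letters matched in it.
H2-DMb1: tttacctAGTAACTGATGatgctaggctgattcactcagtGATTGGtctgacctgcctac
H2-Eb1: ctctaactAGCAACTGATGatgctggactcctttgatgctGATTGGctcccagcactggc
H2-DMb2: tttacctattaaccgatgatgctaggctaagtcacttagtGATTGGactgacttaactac
The GATTGG match began at position -62, -60 and -91 relative to the start of these genes, and H2-Eb1 had another match closer to its start. A match of letters is a description and not a binding site.

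Between the groups, 52 of 4000 genes (1.3%) were higher in MHC II high members and 70 (1.75%) were lower, by the same edgeR test with the library as a block, and the median over all genes was 0.00. The genes of the split and of the member rule were left out of the calls. Genes that go with the split genes, among them the other antigen presentation genes, differ in part by construction. Their folds describe the split and are no separate support for it. The low-count filter asked for 26.96 CPM in 3 sums, and genes that did not reach it in all libraries of both groups are given below by their values. They are part of counts over all tested genes and of the counts of named calls, which support nothing for these genes. Of the 5 antigen presentation genes that the split did not use, Cd74 and H2-DMa reached it in both groups. Cd74 was at 12935, 14968 and 12906 CPM in MHC II high and 308, 584 and 693 CPM in MHC II zero members and rose by 4.72 ± 0.23 (adjusted p = 8.5e-08). H2-DMa rose by 2.45 ± 0.23 (adjusted p = 3.1e-05). H2-DMb1, whose promoter is printed above, was at 472, 501 and 427 against 34.8, 46.5 and 20.1 CPM, and reached the filter level in the high group only. All libraries showed these differences, and the groups did not overlap. Tmem176b rose by 1.92 on the log2 scale, and Mrc1 by 1.59 ± 0.39 (adjusted p = 0.042), with 529.6, 528 and 532 against 94.3, 81.4 and 459.8 CPM. The Mrc1 call was lost with DESeq2, without the replicate block, without the highest Scrublet scores and when the split was made at 2000 UMIs.

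Of 10 genes of monocyte-derived DCs only 4 had enough UMIs to be tested (Mgl2, Cd209a, Clec10a and Ccr7), and none of the 4 reached the filter level in all libraries of the MHC II zero group, so that their calls are no result and only values are given. Few cells carried them. Mgl2, a lectin of dermal DCs and macrophages, had 173, 52 and 157 UMIs in MHC II high members and 0 in MHC II zero members of all libraries, which was at least 7.86-fold higher with a floor of 3 UMIs per library. Cd209a had 109, 98 and 155 UMIs in the high group and 1, 0 and 0 in the zero group. Clec10a, a related lectin, was at 214, 161 and 218 against 14.9, 17.4 and 2.51 CPM. Ccr7, the receptor that guides DCs to lymph nodes, had 73, 111 and 103 against 0, 0 and 13 UMIs. Cd209a was found in 6, 15 and 13 members, Mgl2 in 6, 13 and 11, and Ccr7 in 4, 9 and 8, and 5 cells gave 99.1%, 70.4% and 85.9% of the Cd209a UMIs. The median over cells was 0 for Cd209a, for Mgl2, for the sum of Flt3, Zbtb46 and Ccr7, for the C1q genes and for Arg1 with Mmp12, in both groups of every library. The 24 members that also met the DC gate were all MHC II high, which that gate favours because it asks for H2-Aa and H2-Ab1.

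The MHC II zero members carried more of the blood monocyte genes: of 10 that reached the filter level in both groups, 9 were lower in MHC II high members and none was higher. Over all 11 tested the median was -1.43 and 10 were lower, 4 without the replicate block and 7 without the highest Scrublet scores. Chil3 was at 1130.5, 239 and 1018 CPM in MHC II high and 2984, 968 and 3153 CPM in MHC II zero members. In each library the zero group was higher, though the ranges over libraries overlapped, and Chil3 fell by 1.69 ± 0.18 (adjusted p = 1.0e-04). Slpi was at 265, 359 and 169.9 against 889, 1471 and 852 CPM and fell by 2.05 ± 0.19 (adjusted p = 3.1e-05). Vcan was at 390.4, 152 and 459.9 against 1028, 753 and 1045 CPM and fell by 1.63 ± 0.22 (adjusted p = 6.9e-04). Fn1 fell by 1.43 ± 0.21 (adjusted p = 0.0014). Plac8 fell by 0.76 ± 0.19 (adjusted p = 0.049), a call that was lost with DESeq2, without the replicate block, without the highest Scrublet scores, with the split at 2000 UMIs, without the members holding lymphoid or DC markers, and without the Ndrg2-KO DC or the blank hydrogel library. The Chil3 and Vcan calls were lost without the block. Itgal, the alpha chain of the integrin LFA-1, was at 27.2, 29 and 18.5 against 99.3, 265 and 101 CPM.

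Inflammatory genes were lower in MHC II high members in 4 of the 9 cases that reached the filter level in both groups (Cxcl2, Ptgs2, Nlrp3 and Clec4e) and higher in none. Over all 12 tested genes 6 were lower, 1 without the blank hydrogel library, 1 without the highest 6% of Scrublet scores and none (0 of 12) without the replicate block. Tnf, the cytokine tumour necrosis factor, was at 20.4, 127 and 124 against 119, 849 and 352 CPM. Cxcl2, a chemokine that draws neutrophils, was at 2546, 6887 and 4638 against 5432, 15469 and 10686 CPM and fell by 1.16 ± 0.15 (adjusted p = 6.6e-04). For both genes each library showed the difference, while the ranges over libraries overlapped. The Cxcl2 call was lost without the block and without the blank hydrogel library. Il1b did not pass the test (adjusted p = 0.2). S100a8, of the neutrophil list, was at 23.8, 745 and 509.8 against 44.7, 1064 and 1558 CPM. Its part in the inflammatory genes was not tested here. Gzma and Nkg7, granule genes of NK cells, had 0, 10 and 0 and 0, 3 and 0 UMIs in MHC II high members against 24, 30 and 103 and 11, 10 and 18, and Gzma lay in 1, 2 and 1 members. Without the blank hydrogel library, 20 genes were higher and 27 lower, and without the control DC library 121 were lower. Of 35 calls on named genes, 34, 32 and 24 held without the control DC, the Ndrg2-KO DC or the blank hydrogel library. Those lost without the blank hydrogel library, with adjusted p of 0.063 to 0.43, were Ccl3, Clec4e, Cxcl16, Cxcl2, Cxcl3, Ifitm6, Nlrp3, Plac8, Ptgs2, Rgs1 and Thbs1. Hp was lost without the control DC library (adjusted p = 0.073), and Ifitm6, Plac8 and Rsad2 without the Ndrg2-KO DC library (0.071 to 0.40). Without the replicate block 17 of the 35 held, and with DESeq2 27.

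**Figure D3:**
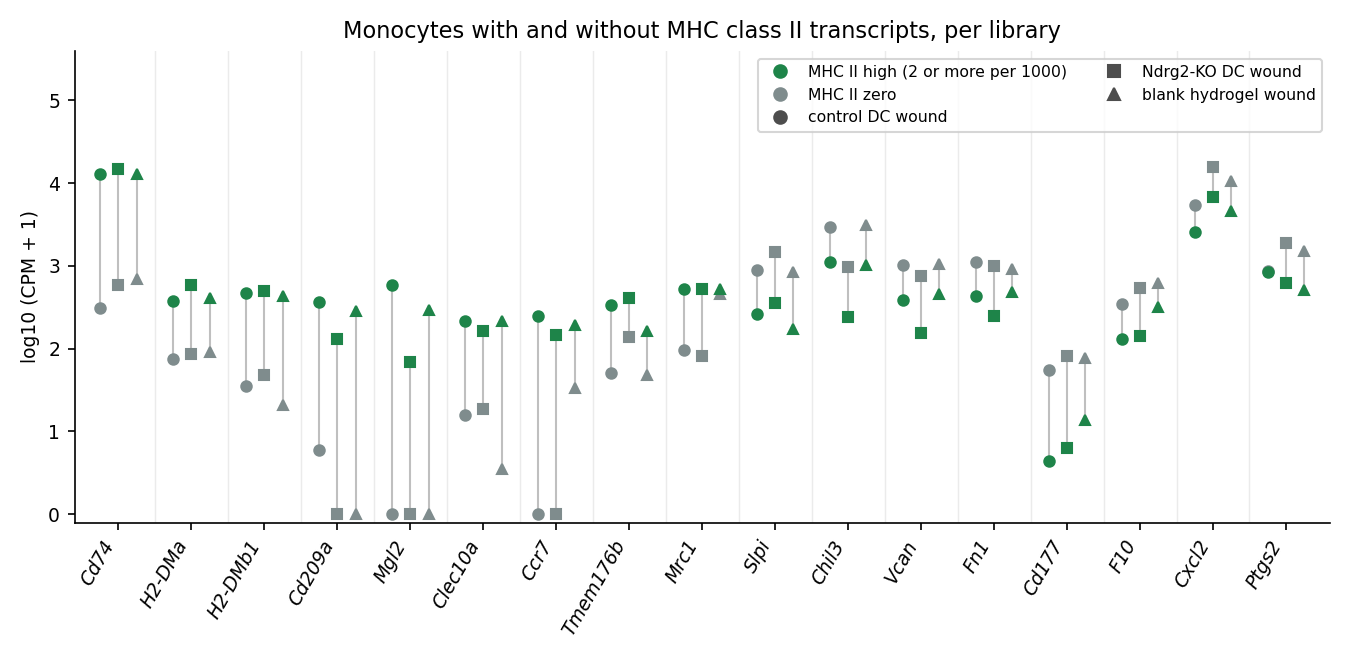
Levels of 17 genes as log10 of CPM + 1 in MHC II high (green) and MHC II zero (grey) members, with 1 symbol per library and a line joining the groups of a library. Cd74, H2-DMa and H2-DMb1 are higher in green in every library, and Chil3, Vcan, Slpi and Cxcl2 are higher in grey.

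The wounds were then compared by the members alone, which asks whether the state of the members differed with the cells delivered. Members of the wounds given DCs may include delivered cells, since these cannot be told apart from host cells. With 1 library per condition there is no replicate, so each log2 ratio of CPM is given with an exact conditional binomial 95% interval that covers counting error only, and genes were named by size (at least 50 UMIs in 1 of the sums and at least 2-fold). Between Ndrg2-KO DC and control DC wounds, 87 of 2722 genes (3.2%) were higher and 23 (0.845%) lower. Between blank hydrogel and control DC wounds, 103 of 2563 (4.02%) were higher and 18 (0.702%) lower. The median over all genes was 0.09 and 0.07. Between Ndrg2-KO DC and blank hydrogel wounds, 48 of 2888 (1.66%) were higher and 43 (1.49%) lower, a comparison added after the data had been seen. The first and second comparisons share the control DC members, and those were the fewest.

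Chil3 set the members of Ndrg2-KO DC wounds apart from those of both other conditions. It had 952, 533 and 1940 UMIs, or 1886, 475 and 1933 CPM, so that the Ndrg2-KO DC members stood alone at the low end. The log2 ratio was -1.99 (-2.15 to -1.84) against control DC wounds and -2.03 (-2.17 to -1.89) against blank hydrogel wounds, and 0.04 (-0.08 to 0.15) between the latter pair. It held within the MHC II groups, at -2.24 (-2.51 to -1.98) in MHC II high and -1.62 (-1.82 to -1.43) in MHC II zero members against control DC wounds. Many cells carried it, with 27, 57 and 70 members, and the 5 highest gave 45.7%, 26.3% and 23.1% of the UMIs. In C1q macrophages the ratio between Ndrg2-KO DC and control DC wounds was 0.61 (0.43 to 0.79), of the opposite sign. Arg1 Mmp12 macrophages went the way of the members in this comparison. Drawn to equal depth, 45.6% of them held Chil3 in control DC and 20.5% in Ndrg2-KO DC wounds. Their share in blank hydrogel wounds was 22.1%, so that Ndrg2-KO DC wounds did not stand alone in this class. Plac8 differed less, at 0.41 (0.29 to 0.55) against control DC wounds and 0.74 (0.63 to 0.86) against blank hydrogel wounds.

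Several inflammatory chemokines and cytokines were lower in the control DC members than in both other groups. Ccl3, a chemokine for macrophages and T cells, had 16, 520 and 250 UMIs, or 31.7, 463 and 249 CPM. Its median was 0 UMIs per member in every library, and 5 cells gave 63.7% and 60.8% of its UMIs in Ndrg2-KO DC and blank hydrogel wounds. The ratio was 3.87 (3.16 to 4.69) in Ndrg2-KO DC and 2.97 (2.25 to 3.80) in blank hydrogel wounds, while C1q macrophages showed -0.26 and -0.66. Arg1 Mmp12 macrophages moved in the direction of the members. With all cells drawn to equal depth, 17.5%, 59.3% and 27.3% of these macrophages held Ccl3, and 26.3%, 57.1% and 37.7% held Tnf. For both genes the exact intervals of control DC and blank hydrogel wounds overlapped. Tnf had 31, 388 and 257 UMIs, and its ratio was 2.49 (1.96 to 3.07) and 2.06 (1.52 to 2.65). Cxcl2, at 3662, 9512 and 7198 CPM and found in 34, 103 and 87 members, was higher by 1.38 (1.31 to 1.45) and 0.98 (0.90 to 1.05). Acod1, which makes the antimicrobial itaconate, had 7, 212 and 191 UMIs and ratios of 3.77 (2.70 to 5.10) and 3.78 (2.71 to 5.11), with 71.7% of the UMIs in Ndrg2-KO DC wounds from 5 cells. Without the highest 6% of Scrublet scores the ratios of Ndrg2-KO DC to control DC wounds were 3.02 for Ccl3, 1.17 for Tnf and 2.86 for Acod1. Il1b hardly moved, at 0.33 (0.25 to 0.41) and -0.17 (-0.26 to -0.08). In all, 5 of 12 inflammatory genes with enough UMIs were at least 2-fold higher in Ndrg2-KO DC and 3 of 11 in blank hydrogel wounds, none was 2-fold lower, and their medians were 0.42 and 0.58.

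Those genes are also genes of neutrophils, whose transcripts moved with the wounds. S100a8, which encodes a calcium-binding protein abundant in neutrophils, had 16, 931 and 899 UMIs in members and ratios of 4.71 and 4.82. It lay in 10, 37 and 41 members, and in the Ndrg2-KO DC and blank hydrogel wounds 5 cells gave 85.6% and 86.0% of its UMIs. S100a9, its partner, had 5, 1113 and 669 UMIs in 5, 58 and 37 members. After 2, 24 and 15 members that held at least 3 UMIs of S100a8 and S100a9 or at least 10 of the haemoglobin genes were left out, the ratios of Ndrg2-KO DC to control DC wounds were 2.66 for Ccl3, 1.14 for Tnf, 0.79 for Cxcl2, 1.90 for Acod1 and -2.23 for Chil3. For blank hydrogel to control DC wounds they were 2.23, 1.61, 0.80 and 3.30 for the first 4 genes. The exclusion used S100a8 and S100a9 themselves, so their lower ratios are in part by construction. S100a8 then stood at 0.39 and 0.58, but S100a9 still at 2.26 and 1.81, with 5, 43 and 30 UMIs left. Neutrophils of these wounds held Ccl3 in 59.1%, 70.4% and 65.4% of cells drawn to 1000 UMIs, and members in 0%, 19.0% and 17.9% at that depth. At their full depth 9, 51 and 38 members held a Ccl3 UMI.

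Further cytokine genes set Ndrg2-KO DC wounds apart. Il6, the cytokine interleukin-6, had 16, 139 and 27 UMIs, with ratios of 1.97 (1.22 to 2.81) against control DC and 2.20 (1.60 to 2.85) against blank hydrogel wounds. Osm, the related cytokine oncostatin M, had 43, 231 and 89 UMIs and ratios of 1.27 (0.80 to 1.78) and 1.21 (0.86 to 1.58). Ccl7, a further Ccr2 ligand, had 42, 288 and 102 UMIs and ratios of 1.62 (1.15 to 2.13) and 1.34 (1.01 to 1.68). All 3 were highest in Ndrg2-KO DC members. How many members carried them, and their ratios in macrophages, are not given here, so the values may rest on few cells. Without the members that carried neutrophil or haemoglobin UMIs they were at 2.09, 1.24 and 1.74 against control DC wounds. Without the members that held 2 lymphoid or DC markers they were at 3.42, 1.33 and 1.59, with 5 Il6 UMIs left in control DC wounds. Dissociation stress genes were higher there as well, at least 2-fold in 3 of 7 (Fos 1.03, Egr1 1.17 and Hspa1b 1.43), with a median of 0.92. Their part in the cytokine values was not tested.

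Several interferon-stimulated genes were higher in the members of both other wounds than in those of control DC wounds, with 4 of 9 genes at least 2-fold higher in Ndrg2-KO DC and 5 of 8 in blank hydrogel wounds, and medians of 0.80 and 1.15. Isg15, a ubiquitin-like interferon product, had 74, 223 and 304 UMIs and ratios of 0.44 (0.05 to 0.84) and 1.05 (0.68 to 1.43). Its ratios were 0.27 and 0.83 without the members holding neutrophil or haemoglobin UMIs. Without the highest 6% of Scrublet scores they were 0.34 and 0.88. Cxcl10, a chemokine for T cells, had 9, 110 and 126 UMIs, but 5 cells gave 84.5% and 90.5% of those in Ndrg2-KO DC and blank hydrogel wounds. Rtp4 and Ifi47, a chaperone and a GTPase induced by interferon, had ratios of 1.08 and 1.23 in Ndrg2-KO DC and 1.26 and 1.82 in blank hydrogel wounds. No interferon-stimulated gene was 2-fold lower in either comparison.

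Several large differences rested on few cells. Mgl2 had 173, 52 and 157 UMIs and a ratio of -2.89 (-3.36 to -2.43) between Ndrg2-KO DC and control DC wounds, from 13 and 6 members. Without the members that held 2 markers of a lymphoid or DC list it was -2.18, and against blank hydrogel wounds it went from -1.76 to -0.21. Ccl5, a chemokine of lymphocytes, had 80, 19 and 112 UMIs, and its ratio of -3.23 between Ndrg2-KO DC and control DC wounds became -0.30 without those members. Hbb-bs had 3689, 4393 and 54 UMIs, of which 1 cell gave 3658 in the control DC and 2147 in the Ndrg2-KO DC wounds. Il12b, a subunit of interleukin-12, had 76 UMIs in 1 blank hydrogel member, and 51 of the 52 Atr UMIs in control DC wounds lay in 1 cell.

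**Figure D4:**
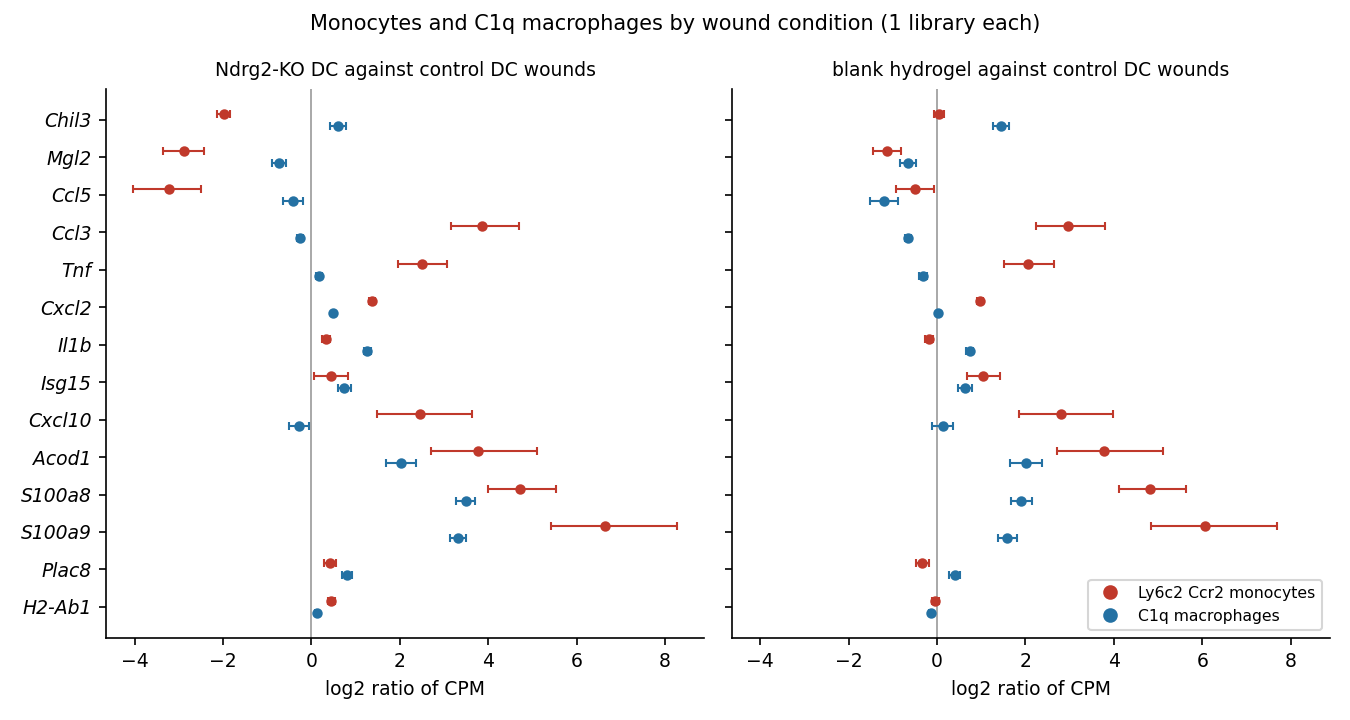
Log2 ratio of CPM of Ndrg2-KO DC (left) and blank hydrogel (right) to control DC wounds in members (red) and C1q macrophages (blue) for 14 genes, with exact 95% intervals for counting error only. Chil3 lies at -1.99 on the left and 0.04 on the right in members, and Ccl3 lies to the right of 0 in members and to the left of 0 in C1q macrophages in both panels.

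H2-Ab1, a chain of MHC class II, was at 3383, 4600.5 and 3299 CPM in members, with ratios of 0.44 (0.36 to 0.52) and -0.04 (-0.12 to 0.05) to control DC wounds. Without the members that held 2 lymphoid or DC markers, which left 998 of the 1708 H2-Ab1 UMIs in control DC wounds, they were 0.83 and 0.32. Members with an H2-Ab1 UMI after the draw to 1000 UMIs were 47.7%, 64.7% and 51.6%, against 3.08%, 5.90% and 4.15% of neutrophils. None of the 6 antigen presentation genes with enough UMIs reached 2-fold in any of the 3 comparisons.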

How the data were processed

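Single-cell RNA sequencing counts were read for 3 wound libraries: control DC, Ndrg2-KO DC and blank hydrogel. The authors deposited UMI counts per gene and cell as made with Cell Ranger, and the submitters' processing notes also name Seurat 3.1.1. The methods name mm10 and the processing notes mm9, so no coordinates were taken from these files. A barcode was kept if it showed 300 or more genes, fewer than 100000 UMIs and less than 10% of UMIs from mt- genes. Kept cells held 29675507, 49240341 and 34905741 UMIs, and members 504904, 1122712 and 1003837. Scrublet, as run in scanpy 1.11.5, marked 17, 2 and 0 cells at its automatic threshold. It did not work at that threshold in the last 2 libraries, so no cell was removed by it, and leaving out the highest 6% of scores was an alternative.

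UMIs were summed per library and class and tested with edgeR 4.0.16 (quasi-likelihood, TMM, library as block, filterByExpr, Benjamini-Hochberg adjustment, adjusted p under 0.05), in R 4.3.3. Libraries pair the classes because both come from the same library. The fit was also run on simulated sums with known folds. These held no treatment differences between libraries, so they cannot show how the calls fare with such differences. DESeq2 1.42.0 was an alternative. Wound conditions had 1 library each and no test. Intervals and floors (3 UMIs) cover counting error only, since cells of 1 library are not replicates. Genes named were those of the gene lists, the 10 largest rises and falls of each tested comparison among genes with at least 50 UMIs per library in the higher class, and the largest ratios between conditions. Genes shown in addition, such as Gzma, Nkg7 and those resting on few cells, were chosen after their values were seen. The members and lists were chosen with earlier results of these data known. Aldoa, which has 2 gene identifiers, was left out. Some genes counted in the lists are not reported here by name. Promoter sequences came from RefSeq, build GRCm38.p6. Exact intervals came from SciPy 1.17.1.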

Additional observations from a re-analysis of the deposited data

Results flagged for a closer look

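For 4 ratios between wound conditions, the members and the C1q macrophages of the same libraries moved in opposite directions. Arg1 Mmp12 macrophages instead went the way of the members for Chil3 and Ccl3 between Ndrg2-KO DC and control DC wounds. At equal depth, 20.5% against 45.6% of them held Chil3, and 59.3% against 17.5% held Ccl3. In blank hydrogel wounds 27.3% held Ccl3, with an interval that overlapped that of control DC wounds. Each condition is 1 library, so the difference between the classes was not tested. Chil3 had a log2 ratio of -1.99 between Ndrg2-KO DC and control DC wounds in members and 0.61 in C1q macrophages. Ccl3 had 3.87 in members and -0.26 in C1q macrophages for Ndrg2-KO DC against control DC wounds. For blank hydrogel against control DC wounds, Ccl3 had 2.97 in members and -0.66 in C1q macrophages. Ccl5 had -2.72 in members and 0.78 in C1q macrophages for Ndrg2-KO DC against blank hydrogel wounds, and in blank hydrogel wounds 94 of its 112 UMIs in members lay in 1 cell.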

How the results depend on the processing

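Of the named genes called in the main fit, none changed direction under an alternative in which it had a value. With every cell drawn to 2000 UMIs, 83 of 101 calls against C1q and 73 of 80 against Arg1 Mmp12 macrophages had a value. Named genes without a call were not checked for direction. Leaving out 1 library at a time gave 811 to 1108 genes higher and 884 to 1093 lower than in C1q macrophages, 468 to 804 higher and 526 to 757 lower than in Arg1 Mmp12 macrophages, and 20 to 68 higher and 27 to 121 lower in MHC II high members. With every cell drawn to 2000 UMIs, which left 4177 genes to test, 507 were higher and 499 lower than in C1q macrophages, and 418 and 425 against Arg1 Mmp12 macrophages. Without the replicate block, 1255 and 1349 genes were called against C1q macrophages, 783 and 845 against Arg1 Mmp12 macrophages, and 27 and 27 between MHC II groups. The MHC II comparison gave 24 higher and 33 lower with DESeq2, 124 and 159 with no filter beyond 1 UMI (12814 genes tested), 29 and 28 without the highest 6% of Scrublet scores, 31 higher when the split was made at 2000 UMIs, and 28 higher without members that held 2 lymphoid or DC markers. The cause of these shifts was not tested.

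The share of members fell to 0.921%, 0.837% and 1.07% in the control DC, Ndrg2-KO DC and blank hydrogel libraries when the rule was applied after drawing to 2000 UMIs. With 300 UMIs in place of 300 genes it was 1.57% in the Ndrg2-KO DC library, and with stricter members it was 1.37% there and 1.76% in the blank hydrogel library. With a minimum of 20 UMIs, 297 genes were at least 2-fold higher and 83 lower in Ndrg2-KO DC against control DC wounds, 301 and 58 in blank hydrogel against control DC wounds, and 167 and 155 in Ndrg2-KO DC against blank hydrogel wounds. Stricter members gave 63 higher in blank hydrogel against control DC wounds.

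The next alternatives were chosen after seeing the data. Without members holding 2 lymphoid or DC markers, 15 genes were lower in Ndrg2-KO DC against control DC wounds, and the same number was found within MHC II high members. Within MHC II high members, 44 genes were higher and 10 lower in blank hydrogel against control DC wounds, and 10 were lower within MHC II zero members, where 68 were lower in Ndrg2-KO DC against blank hydrogel wounds. Some ratios between wounds changed sign, among them the following. Hbb-bs in Ndrg2-KO DC against control DC wounds went from -0.90 to 5.09 without the highest Scrublet scores and to 0.57 without members holding neutrophil or haemoglobin UMIs. Tnf in Ndrg2-KO DC against blank hydrogel wounds went from 0.43 to -0.65 and -0.47 under the same alternatives. Il6 in blank hydrogel against control DC wounds went from -0.24 to 0.61, and Ccl5 from -0.51 to 0.51, without members holding lymphoid or DC markers. Stfa2l1 went to -0.43 between Ndrg2-KO DC and control DC wounds without members holding neutrophil or haemoglobin UMIs, and Ccl17 to 0.14 between Ndrg2-KO DC and blank hydrogel wounds without members holding lymphoid or DC markers. Between blank hydrogel and control DC wounds, Hba-a1 went to 0.53 without the highest Scrublet scores, 0.99 with stricter members and 0.24 in MHC II zero members. Hba-a2 went to 1.19, 0.67 and 0.017 under the same alternatives and to 0.45 without members holding neutrophil or haemoglobin UMIs, and Hbb-bs to 0.49 in MHC II zero members. The comparison with wound DCs was not run, since 9 such cells in the control DC library were too few. Depth limits low genes most in the control DC members, whose summed UMIs were the fewest.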
